A study of Rattus norvegicus with 18 samples.

Results

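Nefh, Prph and Uchl1 are 3 neuronal genes of the rat dorsal root ganglion (DRG), and their RNA levels and ratios were followed in injured and naive ganglia. Prph and Uchl1 were found by exact symbol in a list of 1994 genes that pairs Ensembl identifiers with symbols. Nefh was found by its Ensembl identifier, ENSRNOG00000008716. These were 3 of the 26172 genes in the tables of normalized read counts, and all 3 had reads in every library and passed the filter on low values. The rule used no difference between the groups, though the list of symbols holds only genes that the study had kept for a test of intronic reads. The 3 genes were, however, chosen with earlier results of these data known.

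Ganglia of male Wistar rats were collected 7 days after transection of the L5 spinal nerve (SNT), always at L5, and the same ganglion was collected from naive rats. The naive animals had no surgery, so cutting the nerve and the operation itself cannot be told apart. Tissue of 4 rats was pooled for each library, with n = 3 poly(A) libraries per group. Each library was sequenced in 3 runs, named 17 M, 25 M and 50 M after their approximate number of reads, and these runs are technical repeats of the same 6 libraries. Values are at 50 M unless another depth is given, where SNT libraries had 15000789 to 17480115 counted reads and naive libraries had 18588873 to 19031166. The normalized count is the number of reads on a gene's exons divided by the size factor of the library. It is not scaled to gene length, so a rank or a group of genes by read count depends on length as well as on level, and of a ratio between genes only its change was read.

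Nefh encodes the heavy subunit of neurofilaments, the intermediate filaments that fill large myelinated axons, and is a classical marker of large-diameter sensory neurons. Prph encodes peripherin, an intermediate filament protein of peripheral neurons that is prominent in small-diameter, unmyelinated sensory neurons. Uchl1 encodes a ubiquitin hydrolase (also called PGP9.5) that is abundant in the cytoplasm of nearly all neurons and is used as a marker of all sensory neurons. A ganglion also holds satellite glia, Schwann cells, macrophages, fibroblasts and vessels. In such bulk tissue, fewer neurons of a type and less RNA per neuron cannot be told apart.

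RefSeq windows from 250 bases before to 50 bases after the gene start were at hand for 2 of the 3 genes, Prph and Uchl1. They are shown as the reference sequence of these genes, and no link between the marked letters and the RNA levels was tested. Both are given 5′ to 3′ on the strand of the gene in the build GRCr8, Prph at chr7:132097039-132097338 on the plus strand and Uchl1 at chr14:41849368-41849667 on the minus strand. Capitals mark the core promoter element TATAAA and the GC-rich element GGGCGG on either strand.
Prph: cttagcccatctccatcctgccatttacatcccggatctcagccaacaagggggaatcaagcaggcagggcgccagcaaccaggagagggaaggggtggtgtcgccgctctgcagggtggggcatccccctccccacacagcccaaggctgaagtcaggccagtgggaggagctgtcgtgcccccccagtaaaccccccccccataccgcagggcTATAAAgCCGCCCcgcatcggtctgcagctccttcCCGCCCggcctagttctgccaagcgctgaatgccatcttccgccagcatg
Uchl1: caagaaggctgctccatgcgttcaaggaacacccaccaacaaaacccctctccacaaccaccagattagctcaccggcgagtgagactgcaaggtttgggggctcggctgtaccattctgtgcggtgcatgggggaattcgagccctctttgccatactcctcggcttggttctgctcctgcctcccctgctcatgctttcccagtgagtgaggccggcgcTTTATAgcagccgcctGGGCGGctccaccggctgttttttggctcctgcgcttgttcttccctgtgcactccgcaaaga
Counted from the 5′ end of the window, Prph had TATAAA at bases 216 to 221 on the gene strand, and GGGCGG at bases 223 to 228 and 251 to 256 on the other strand. Uchl1 had TATAAA on the other strand at bases 222 to 227 and GGGCGG on the gene strand at bases 238 to 243. TATAAA was in 14.2% and GGGCGG in 33.1% of all 33469 windows of this length. The GC content was 64.3% for Prph and 58.7% for Uchl1, with a median of 51.7% over all windows.

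SNT 1 lay between the naive libraries and the other SNT libraries for many genes. On the log2 scale it had moved a median of 54.4% of the way from the naive mean to the mean of SNT 2 and SNT 3 over the 5266 genes called lower, and 65.6% over the 5231 called higher. Fold changes and ratios of the 3 genes, and most counts in the gene lists, are therefore given with and without SNT 1. The places of SNT 2 and SNT 3 were not computed in this way. In the sum of macrophage markers given below, SNT 2 was the farthest from naive. Neuronal markers were present in all 6 libraries, and none of the matched markers of any list was at 0 in every library.

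Nefh RNA was much lower in injured ganglia, Uchl1 RNA fell less, and Prph RNA was not shown to differ. Groups were compared with limma on log2(normalized count + 1), with p-values adjusted after Benjamini and Hochberg over all 17930 genes tested and a threshold of 0.1. Both calls were made at all 3 depths. Of all genes tested, 29.4% were called lower in SNT, 29.2% higher and 58.5% in either direction, and at 17 M and 25 M 26.4% and 28.3% were called lower, so a call by itself was common. Without SNT 1, calls over all genes rose from 10497 to 11490 of 17930, with 50.2% of the 11490 higher in SNT. Counts in gene lists without SNT 1 stand beside this larger number.

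Nefh had normalized counts of 206480, 215828 and 186814 in the naive libraries. In SNT 1, SNT 2 and SNT 3 they were 95133, 32294 and 40830. The groups did not overlap, and SNT 1 was well above both other SNT libraries. Nefh took 1.02% to 1.16% of all counted reads in naive libraries and was the 4th or 5th most read gene there. In SNT libraries it took 0.563%, 0.198% and 0.247% of reads and ranked 7, 29 and 20. The mean fell from 203041 ± 14810 to 56085 ± 34085 (SD, n = 3), or to 27.6% of naive. The log2 fold change was -2.02 (SE 0.41, 95% interval -2.99 to -1.05, limma adjusted p = 0.00817). Without SNT 1, the ratio to the naive mean was 0.180, with a log2 fold change of -2.48. It was -2.01 at 17 M and -2.02 at 25 M, with limma adjusted p = 0.00683 and 0.00758.

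Uchl1 (ENSRNOG00000002343) had normalized counts of 31810, 35127 and 30492 in naive libraries. They were 25338, 18032 and 21377 in SNT 1, SNT 2 and SNT 3. The groups did not overlap, and SNT 1 was again the highest of the injured libraries. The SNT mean was 66.5% of naive (21582 ± 3658 against 32476 ± 2388, SD, n = 3). The log2 fold change was -0.60 (SE 0.16, 95% interval -0.98 to -0.23, limma adjusted p = 0.0190), and -0.72 without SNT 1. Both other depths gave -0.60, with limma adjusted p = 0.0208 at 17 M and 0.0206 at 25 M.

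Prph (ENSRNOG00000015643) had normalized counts of 35736, 41147 and 35278 in naive libraries. They were 36278, 25944 and 30807 in SNT 1, SNT 2 and SNT 3. SNT 1 lay within the naive range and the other SNT libraries lay below it, so the groups overlapped. The SNT mean was 82.9% of naive (31009 ± 5170 against 37387 ± 3265, SD, n = 3). The log2 fold change of -0.28 (SE 0.17, limma adjusted p = 0.203) did not pass the threshold, and its 95% interval of -0.67 to 0.12 holds both no change and a fall like that of Uchl1. It was also not called at 17 M (-0.26, limma adjusted p = 0.260) or 25 M (-0.28, limma adjusted p = 0.215). The result depended on which library was left out. Without SNT 1, the SNT library nearest to naive for Prph, the log2 fold change was -0.40. It then passed at all 3 depths, which are runs of the same libraries, with limma adjusted p = 0.0239, 0.0328 and 0.0342 at 17 M, 25 M and 50 M. Without SNT 2, the lowest SNT library, the log2 fold change was -0.16 at 50 M (limma adjusted p = 0.446). Whether Prph fell is thus not settled by leaving out a library.

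**Figure D1:**
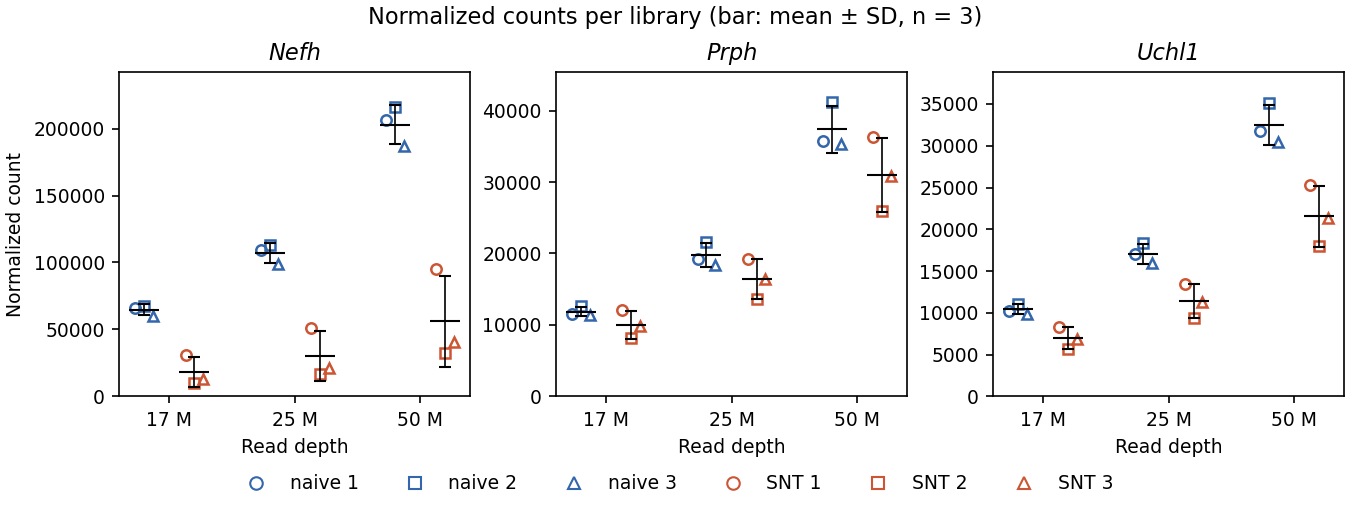
Normalized counts of Nefh, Prph and Uchl1 in each library at 3 read depths. Open symbols are libraries, blue for naive and red for SNT, and black bars are the mean ± SD of 3 libraries. Naive and SNT libraries are apart for Nefh and Uchl1 and overlap for Prph through SNT 1, and the counts grow with depth because each depth was normalized alone.

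A test that uses the 3 libraries of each group alone cannot reach a low p. The two-sided exact permutation test of the log2 levels gave p = 0.1 for Nefh and Uchl1, the smallest value that 3 against 3 libraries allow, and p = 0.3 for Prph. Groups that did not overlap, with SNT lower, were found for 31.3% of all genes tested.

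Repeat sequencing of a library changed these levels little. Over the 3 runs of a library, the share of reads on Nefh had a coefficient of variation of 0.446% to 1.85%, against 6.06% between the naive and 58.9% between the SNT libraries at 50 M. For Prph the coefficient over runs was 0.639% to 2.54%, with 7.99% between naive and 14.9% between SNT libraries. For Uchl1 it was 0.139% to 1.87%, with 6.42% and 15.1%. The spread among injured samples was thus between libraries and not between runs.

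Among all genes tested, 2.89% had a lower log2 fold change than Nefh, 20.1% than Uchl1 and 34.1% than Prph. The 211 genes with a naive mean of at least 10000 normalized counts were compared too, since all 3 genes passed this count in naive libraries. Of these, 125 fell and 19 rose, with a median log2 fold change of -0.47 against 0.01 for all genes. The set was chosen on the naive mean alone. Genes with many reads only in SNT are left out, which by itself favours falls. In this group 14 genes had a lower log2 fold change than Nefh, 90 than Uchl1 and 135 than Prph. Nefh was thus near the low end of these genes with many reads in naive libraries, whereas Uchl1 and Prph lay on either side of their median.

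The ratio of 2 genes within a library does not depend on how libraries are scaled to each other. The ratio of Nefh to Prph was 5.78, 5.25 and 5.30 in naive libraries. It was 2.62, 1.24 and 1.33 in SNT 1, SNT 2 and SNT 3. All injured libraries were below all naive ones, and the mean log2 ratio changed by -1.74, or by -2.08 without SNT 1. The ratio of Nefh to Uchl1 was 6.49, 6.14 and 6.13 in naive libraries. In SNT 1, SNT 2 and SNT 3 it was 3.75, 1.79 and 1.91, and the log2 change was -1.42, or -1.76 without SNT 1. Nefh therefore fell against both other genes in each of the 3 injured libraries.

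The ratio of Prph to Uchl1 moved less but was tighter. It was 1.12, 1.17 and 1.16 in naive libraries and 1.43, 1.44 and 1.44 in SNT 1, SNT 2 and SNT 3. Prph was thus higher against Uchl1 in all 3 injured libraries, although its own level overlapped between the groups. The mean rose from 1.15 ± 0.0246 to 1.44 ± 0.00489 (SD, n = 3), a 1.25-fold difference and a log2 change of 0.32 both with and without SNT 1. SNT 1 had the ratio of the other SNT libraries, whereas it had gone only 44.0% of the way to them for Nefh, 49.1% for Uchl1 and 9.98% for Prph. At 17 M the log2 change was 0.34, with naive ratios of 1.12 to 1.16 and SNT ratios of 1.42 to 1.46. At 25 M it was 0.32, with naive ratios of 1.13 to 1.18 and SNT ratios of 1.43 to 1.46.

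**Figure D2:**
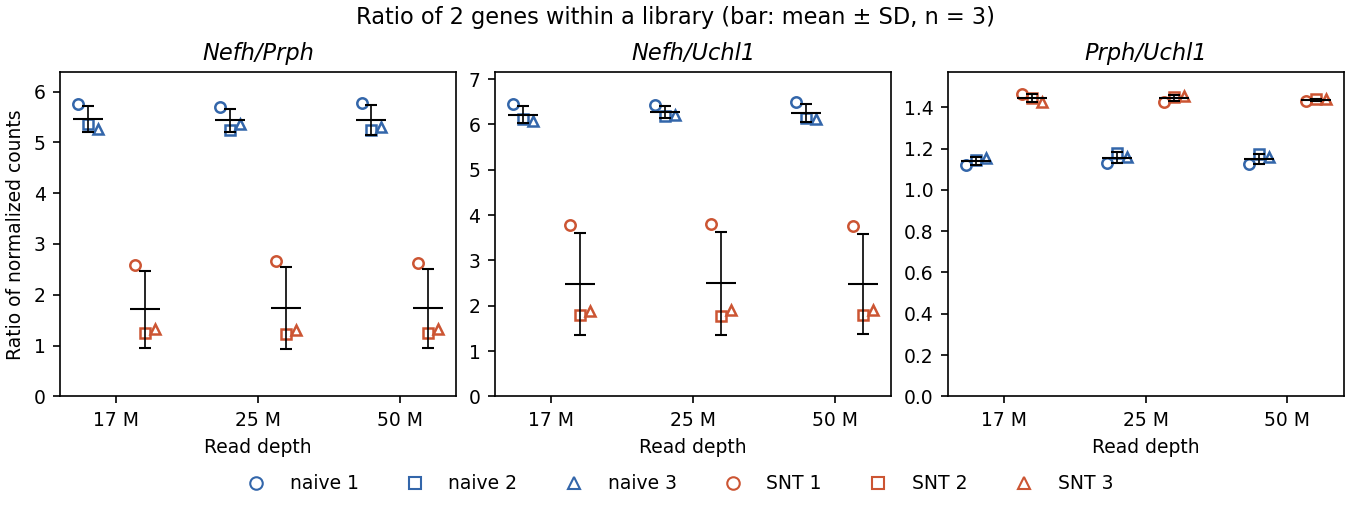
Ratio of the normalized counts of 2 genes within each library, at 3 read depths. Symbols are libraries and black bars are the mean ± SD of 3 libraries, with SNT libraries all below the naive ones for both ratios with Nefh and all above them for Prph/Uchl1, where the SNT libraries sit between 1.42 and 1.46.

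For each of the 3 ratios the groups did not overlap at any depth, and the two-sided exact permutation test gave p = 0.1, the smallest it can give. Over these 9 comparisons, 3 ratios at 3 depths, the Benjamini-Hochberg adjusted exact p was 0.1. The depths are runs of the same libraries, so the 9 are not independent tests. The differences were larger than the spread between libraries of a group, but the design cannot bring this test under 0.05. How often ratios of other genes separate the groups was not determined. Single genes often did, with 31.3% not overlapping and lower in SNT.

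To set the genes against other neuronal RNAs, their log2 levels were taken relative to the mean of 18 neuronal markers in the same library. That mean was itself lower in SNT by 0.72 on the log2 scale. Nefh fell further than the markers, with a log2 change of -1.30 (from 4.65 ± 0.02 to 3.35 ± 0.43, SD, n = 3), and the groups did not overlap. Prph changed by 0.44 against the markers (from 2.20 ± 0.06 to 2.64 ± 0.16), again without overlap and in the opposite direction. Uchl1 changed by 0.12 (from 2.00 ± 0.03 to 2.12 ± 0.16), with groups that overlapped because SNT 1 was below the naive libraries. The exact permutation p was 0.1 for Nefh and Prph, the smallest possible, and 0.4 for Uchl1. Without SNT 1 the log2 changes against the markers were -1.55 for Nefh, 0.53 for Prph and 0.21 for Uchl1, and the groups then overlapped for none of the 3 genes. Relative to a falling set of neuronal RNAs, Prph was thus higher in SNT and Nefh lower. How often other genes separate the groups against these markers was not determined.

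**Figure D3:**
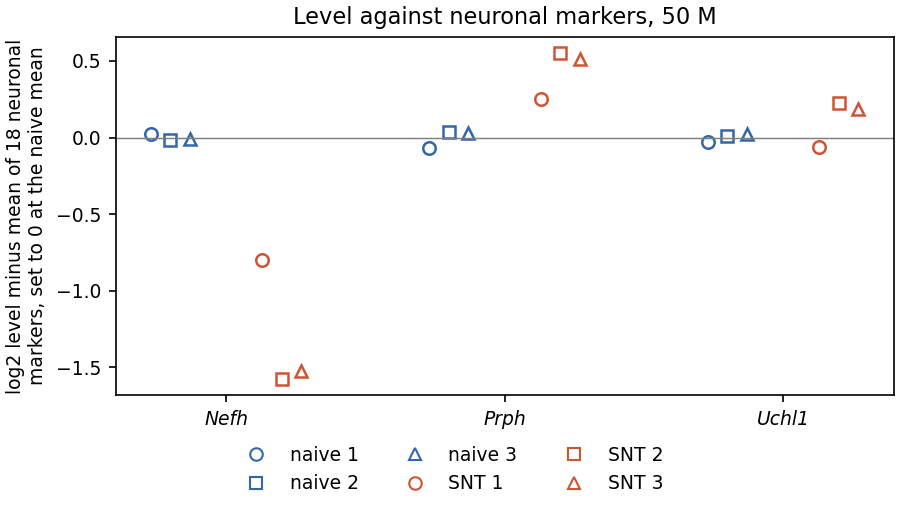
Log2 level of each gene minus the mean log2 level of 18 neuronal markers in the same library at 50 M, with the naive mean set to 0. Nefh is lower in all SNT libraries, Prph is higher in all of them, and for Uchl1 SNT 1 lies below the naive libraries while SNT 2 and SNT 3 lie above.

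Markers of both large and small neurons were lower in SNT, as were 29.4% of all genes tested. All 3 matched large-diameter markers, of 9 listed, fell, with a median log2 fold change of -2.64. The largest falls were in Kcnc1, a fast potassium channel (log2 fold change -3.23, limma adjusted p = 0.00930), and Scn1a, a sodium channel (-2.64, limma adjusted p = 0.00864). All 4 matched small-diameter markers also fell, with a median of -2.01, led by Cd55, a complement regulator (-2.52, limma adjusted p = 0.0136), and Calca, the gene of the peptide CGRP (-2.37, limma adjusted p = 0.0182). Nefh fell less than the mean of the large-diameter markers, by a log2 difference of 0.64 with no overlap of the groups. This difference came mainly from Kcnc1 and Scn1a. The third marker, the sodium channel Scn8a, had a log2 fold change of -2.10, close to -2.02 for Nefh. Kcnc1 had only 33.7 and 26.4 normalized counts in SNT 2 and SNT 3. Against the mean of the small-diameter markers the difference of Nefh was -0.19, with overlap. Prph differed from the small-diameter markers by 1.55 and from the large-diameter markers by 2.38, without overlap, so the gene for peripherin did not follow the other small-neuron markers matched here. For Uchl1 these differences were 1.23 and 2.06. Without SNT 1, all 7 markers of both lists also fell, and the differences from the large-diameter markers were 0.88 for Nefh, 2.97 for Prph and 2.64 for Uchl1. Those from the small-diameter markers were then -0.14, 1.94 and 1.61. The share of other genes that lie apart from these marker means was not determined.

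The other genes of these pathways were taken from lists by role, and only genes with a symbol at hand could be matched. The genes Nefl and Nefm for the other neurofilament subunits had no match and were not analysed here. Of 11 listed intermediate filament proteins and linkers only 2 matched. Sync (syncoilin) fell, with a log2 fold change of -0.46 (limma adjusted p = 0.0171). Dst (dystonin), a linker of filaments, had -0.10 (limma adjusted p = 0.652).

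Of 19 matched microtubule proteins, 10 fell, 5 rose and 4 did not pass, with a median log2 fold change of -0.27. The largest falls were in the microtubule-binding proteins Map7d2 (-1.48, limma adjusted p = 0.00499) and Map7 (-1.39, limma adjusted p = 0.0101). Stmn4, a stathmin that binds tubulin, rose 6.14-fold in mean normalized count (log2 fold change 2.61), and Atat1, a tubulin acetyltransferase, rose 1.81-fold (0.86). Without SNT 1, 11 fell and 5 rose. Of 21 motors and adaptors of axonal transport, 11 fell, 2 rose and 8 did not pass, with a median of -0.33. Dync1i1, a dynein intermediate chain, had a log2 fold change of -1.59 and the kinesin Kif21a of -1.14. The kinesin Kif13a (0.57) and the adaptor Hook3 (0.34) rose. Without SNT 1, 14 motors and adaptors fell and 3 rose. Of 8 proteins of the spectrin membrane skeleton, 4 fell and 2 rose, with a median of -0.42. Epb49 (-0.88) and Epb4.1 (-0.56) fell and Epb4.1l2 (0.73) and Add3 (0.63) rose. Without SNT 1, 5 fell and 2 rose, and without SNT 3, naive 1 or naive 2 only 2 fell. The counts with all 6 libraries stand beside 29.4% lower and 29.2% higher among all genes tested. Those without SNT 1 stand beside 11490 of 17930 genes called, 50.2% of them higher. No matched gene of these 3 lists had a log2 fold change below that of Nefh.

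Uchl1 belongs to the deubiquitinases, enzymes that remove ubiquitin. Of 12 other matched deubiquitinases 7 fell, 2 rose and 3 did not pass, beside 29.4% lower and 29.2% higher among all genes tested. Their median was -0.56 against -0.60 for Uchl1, and 5 of the 12 had a lower log2 fold change than Uchl1. Usp20 (-0.84, limma adjusted p = 0.00718) and the proteasome-bound Usp14 (-0.78, limma adjusted p = 0.00988) fell most. Usp28 (0.39) and Otud5 (0.32) rose. Without SNT 1, where 11490 of all 17930 genes were called, 7 fell and 3 rose.

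Of the 18 neuronal markers, 12 fell, 1 rose and 5 did not pass, with a median log2 fold change of -0.77. The shares over all genes tested were 29.4% lower and 29.2% higher. Without SNT 1, where 11490 of all 17930 genes were called, 14 fell. Rph3a, an effector of synaptic vesicle traffic (-2.17), and Snap25, a SNARE protein (-2.15), fell most, and Nsg1, an endosomal neuronal protein, rose (1.18). Of these 18 markers, 2 fell more than Nefh, 10 had a lower log2 fold change than Uchl1 and 14 than Prph. Some genes, such as Map2, Mapt and Stmn3, are in both the neuronal and the microtubule lists.

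**Figure D4:**
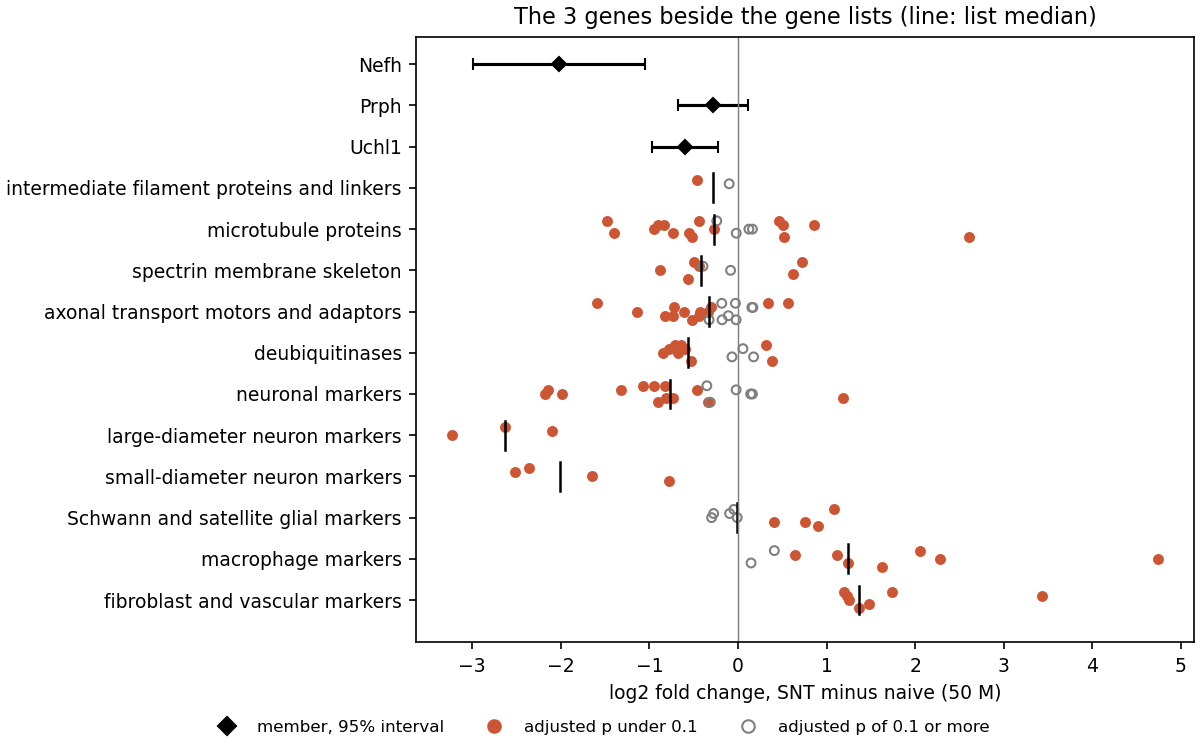
Log2 fold change (SNT minus naive, 50 M) of Nefh, Prph and Uchl1 with 95% intervals, above the matched genes of 11 lists. Each dot is a gene, filled where its limma adjusted p was under 0.1, and a vertical line marks the list's median. Lists of neuronal genes lie mostly left of 0, with medians down to -2.64, and macrophage and fibroblast lists lie right of it.

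Markers of other cells of the ganglion moved with the groups, beside 29.2% higher and 29.4% lower among all genes tested. Of 9 macrophage markers 7 rose and none fell, with a median log2 fold change of 1.24, led by Gpnmb (4.75) and Cyth4 (2.28), and without SNT 1 all 9 rose. Their summed normalized counts were 18484 to 18789 in naive libraries and 33148, 62390 and 40767 in SNT 1, SNT 2 and SNT 3. All 7 fibroblast and vascular markers rose, with a median of 1.36, led by Postn (3.43) and Fbn1 (1.73), and their sums went from 50140 to 79704 in naive to 116283 to 179623 in SNT libraries. Of 9 Schwann and satellite glial markers 4 rose, among them Erbb3 (1.09) and Sox10 (0.90), and 5 did not pass, with sums of 304789 to 555010 in naive and 377068 to 471228 in SNT libraries. Without SNT 1, where 11490 of all 17930 genes were called, all 7 fibroblast and vascular markers and 4 glial markers rose. The 18 neuronal markers summed to 245825 to 283198 in naive libraries and to 214745, 139946 and 172277 in SNT 1, SNT 2 and SNT 3. The order of the SNT libraries in this neuronal sum was the same as in Nefh, Prph and Uchl1, with SNT 1 highest, SNT 3 next and SNT 2 lowest, and it was reversed in the macrophage sum. The part of these shifts in the levels of Nefh, Prph and Uchl1 was not tested.

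The genes with the pattern most like each of the 3 were found among 1945 genes with a symbol and on average 100 normalized counts or more, by the root mean square difference of log2 levels over the 6 libraries after each gene's naive mean was subtracted. For Nefh these were Galnt14 (a difference of 0.0444), Myt1l, Tesc, Snap25 and Susd4. For Prph they included Kif3a (0.0468), Spock2, Syngr3 and Ube4b. For Uchl1 they were Flywch1 (0.0260), Btrc, Aifm1, Napa and Ano4. The log2 fold changes of the genes named spanned -2.19 to -1.99 for Nefh, -0.31 to -0.24 for Prph and -0.61 to -0.56 for Uchl1. These spans follow from the choice of genes by closeness in the same libraries and are not a separate result. The order was not stable, since only 1, 2 and 1 of the first 5 genes were also in the first 5 at 17 M for Nefh, Prph and Uchl1. At 25 M the shared numbers were 2, 1 and 1, and with Pearson correlation as the measure they were 2, 0 and 1.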

How the data were processed

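RNA-seq libraries of L5 DRG (3 SNT, 3 naive, 4 rats pooled in each) were analysed. Per the study's methods, Bowtie placed the 34-base reads on the genome build Rn5 with at most 1 mismatch, reads mapping to several places were discarded, and exonic reads per Ensembl gene were counted. Repetitive stretches of a gene may therefore have been counted only in part. The deposited signal values are normalized counts, which the authors had divided by DESeq size factors (0.882 to 1.13) at each depth. Reads were recovered as whole multiples of the step of each of the 18 columns (100% of values, tolerance 1e-06 of a read). Libraries had 4968448 to 19031166 counted reads. Replicates are pools of different rats.

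limma 3.58.1 (R 4.3.3) was run on log2(normalized count + 1) with a variance trend, two-sided, on genes with reads in at least 3 of 6 libraries, with each depth alone, no covariate and FDR 0.1. The fits were also run on simulated counts with far fewer changed genes than were called here, so that run does not represent these data. Alternative settings were a pseudocount of 0.5 or 5, no filter, a mean of at least 10, no variance trend, equal totals, FDR 0.05, a replicate block, summed runs, each library left out (for values against marker means only SNT 1, chosen after the data were seen), edgeR 4.0.16 (quasi-likelihood) and DESeq2 1.42.0 (Wald) on recovered reads. Genes named beside the 3 were, in each list, up to 2 that rose and 2 that fell with the largest change among those called at all depths, and the 5 most alike in pattern, of which 1 is not reported here. Dst, Map2, Mapt, Stmn3 and Scn8a were named after their values were seen. Symbols came from a supplementary table held here in part, of genes the study tested for intronic reads, so lists are incomplete. The 3 genes and the lists were chosen with earlier results of these data known. Promoter windows and their starts came from RefSeq (GRCr8), another build than that of the counts.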

Additional observations from a re-analysis of the deposited data

How the results depend on the processing

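All log2 fold changes and ratio changes of Nefh, Prph and Uchl1 kept their direction under every alternative run, and Nefh and Uchl1 remained called in each at all 3 depths, with adjusted p (limma, edgeR or DESeq2) up to 0.0434 for Nefh and 0.0795 for Uchl1. Prph was called only without SNT 1. Leaving out 1 library at a time, its log2 fold change ranged from -0.41 to -0.12 at 17 M, from -0.40 to -0.15 at 25 M and from -0.40 to -0.16 at 50 M. Over the same fits Nefh ranged from -2.48 to -1.70 and Uchl1 from -0.72 to -0.48 at 50 M. Equal totals moved the median of all genes by 0.15, so that 62.5% of the calls at 50 M were higher in SNT against 49.8% in the size-factor scaling. Relative to that median, Nefh had -2.02, Uchl1 -0.60 and Prph -0.28 at 50 M, against -2.03, -0.61 and -0.29. Deubiquitinases that rose went from 2 to 4 with equal totals. With 1 library left out, spectrin genes that fell ranged from 2 (without SNT 3, naive 1 or naive 2) to 5, motors that rose from 1 (without SNT 2, SNT 3, naive 1 or naive 3) to 3 and glial markers that fell from 0 to 1 (without naive 2). Same-numbered libraries did not consistently deviate together (correlations of 0.0271, -0.426 and 0.278 at 50 M). Each group was centred on its own mean, so these correlations depend on each other and cannot exclude a pairing by number. With a replicate block the adjusted p at 50 M was 0.0221 for Nefh, 0.0616 for Uchl1 and 0.332 for Prph, no call of these genes changed, and 9459 genes were called against 10497 without it. The exact test of paired ratios gave p = 0.25, the smallest 3 pairs allow. Counting error was at most 1.37% of the reads of these genes in any run, and the runs of a library differed by up to 4.66% in the share of reads on 1 of them.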
